A study of Mus musculus with 8 samples.

Results

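The genes described here are 10 well-known transcriptional targets of the tumour suppressor p53: Cdkn1a, Mdm2, Ccng1, Trp53inp1, Phlda3, Zmat3, Bax, Bbc3, Pmaip1 and Sesn1. They were chosen by symbol as targets that carry the arrest, apoptosis and feedback functions of p53, and all 10 were found among the 21692 genes of the count table. All 10 also passed the filter on low counts, which left 15517 genes tested. RNA was sequenced from forelimb buds of CD1 mouse embryos of gestation day 13 that had been kept in culture for 24 h. The 4 vehicle libraries came from buds cultured with dimethyl sulfoxide, and the 4 OPE libraries from buds cultured with a mixture of organophosphate esters, which are flame retardants and plasticisers, composed after house dust and diluted 1 in 300000. The buds are whole explants that hold cartilage, muscle, ectoderm, vessels and blood cells together. In such bulk RNA, fewer cells of a type and less RNA per cell cannot be told apart. The labels name no litters or separate cultures for the replicates, and p-values here speak of the spread among these samples alone, which may be technical.

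p53 is kept at a low level by the ubiquitin ligase Mdm2 and is released from it after DNA damage, ribosomal stress or other insults. It then binds its targets as a tetramer and raises their transcription. Cdkn1a (p21) stops the cell cycle by inhibiting cyclin-dependent kinases. Bax, Bbc3 (Puma) and Pmaip1 (Noxa) open the mitochondrial route to apoptosis, and Mdm2 and Ccng1 feed back on p53 itself. In the limb, loss of Mdm2 restraint on p53 is known to damage the growing skeleton. The levels of these genes are commonly read together as a measure of p53 activity.

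The p53 response element is 2 copies of a 10-base consensus (the p53 decamer), each with the core CNNG in which both N are A or T. The decamer reads the same on both strands. RefSeq promoter windows (build GRCm38.p6) run from 250 bases before to 50 bases after a start site. They were searched for 7 of the 10 genes, with 11 windows in all. No window was matched by symbol for Trp53inp1 and Zmat3, and Pmaip1 was left out of the search. Among the 7 genes searched, only Cdkn1a and Bbc3 held 2 adjacent decamers with both cores intact and at most 3 mismatches to the consensus. Pairs with bases between the decamers, and sites outside these windows, were not searched. In the Cdkn1a window the pair has 1 mismatch, and its first base lies 51 bases before the upstream start site (chr17:29090928-29090947, plus strand). In the Bbc3 window it has 3 mismatches and begins 97 bases before the start site (chr7:16309486-16309505, plus strand). Of the 32851 promoter windows searched over all genes, 0.0548% held such a pair with at most 1 mismatch and 0.572% with at most 3. Both windows are shown because these genes gave values on opposite sides of the vehicle mean. Capitals mark the pair of decamers, and the windows span chr17:29090729-29091028 and chr7:16309333-16309632.
Cdkn1a: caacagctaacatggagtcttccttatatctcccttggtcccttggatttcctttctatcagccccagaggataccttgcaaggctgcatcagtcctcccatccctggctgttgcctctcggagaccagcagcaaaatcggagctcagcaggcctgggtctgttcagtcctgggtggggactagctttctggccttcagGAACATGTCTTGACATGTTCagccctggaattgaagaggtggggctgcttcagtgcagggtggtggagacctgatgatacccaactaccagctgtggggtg
Bbc3: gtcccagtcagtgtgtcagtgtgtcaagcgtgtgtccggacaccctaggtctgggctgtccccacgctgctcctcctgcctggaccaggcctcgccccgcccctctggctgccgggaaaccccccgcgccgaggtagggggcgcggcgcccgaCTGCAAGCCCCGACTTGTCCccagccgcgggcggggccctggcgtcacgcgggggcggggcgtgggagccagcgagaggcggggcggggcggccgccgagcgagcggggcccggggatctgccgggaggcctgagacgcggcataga

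At least 1 decamer with no mismatch occurred in 5 of the 11 windows, 1 window each of Cdkn1a, Mdm2, Ccng1, Bax and Sesn1, and in 8.36% of all windows. The Cdkn1a window held 2 such decamers, and the 4 others held 1 each. Of the 2 in the Cdkn1a window, 1 is in the marked pair and 1 lies outside it, not in capitals. The stretches of the 4 genes without a pair are given in the direction of transcription with 20 bases on each side, and capitals mark the decamer. They lie at chr10:117710935-117710944 for Mdm2, chr11:40755462-40755471 for Ccng1, chr7:45467090-45467099 for Bax (all on the minus strand) and chr10:41887266-41887275 for Sesn1 (plus strand, before an internal start site). A match is a stretch of letters, and binding of p53 was not measured.
Mdm2: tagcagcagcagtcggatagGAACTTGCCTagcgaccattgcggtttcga
Ccng1: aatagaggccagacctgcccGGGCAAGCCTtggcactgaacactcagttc
Bax: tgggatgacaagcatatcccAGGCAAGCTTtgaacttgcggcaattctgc
Sesn1: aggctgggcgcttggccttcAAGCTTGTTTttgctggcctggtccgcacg

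The comparison of OPE with vehicle asked whether these targets changed over 24 h of exposure. None of the 10 passed an adjusted p of 0.05 in either direction (edgeR quasi-likelihood test, Benjamini-Hochberg over all genes tested), and 0.477% of all genes tested passed. Pmaip1 alone had an unadjusted p below 0.05, 1 of 10, where the share over all genes was 13.2%. The log2 fold change was above 0 for 8 of the 10 and below 0 for Cdkn1a and Mdm2, with a median of 0.21, while it was above 0 for 52.8% of all genes tested, with a median of 0.01. In none of the 10 were the 4 OPE values (CPM, counts scaled to library size) all above or all below the vehicle range, as they were in 9.49% of all genes tested. DESeq2 called 1 of the 10, Pmaip1, and 3.11% of the genes it adjusted, while limma-voom called 0 of the 10 and 0.651% of the genes. By the adjusted p of the authors' deposited table Pmaip1 passed too, 1 of the 10, as did 2.68% of the genes with an adjusted p.

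**Figure D1:**
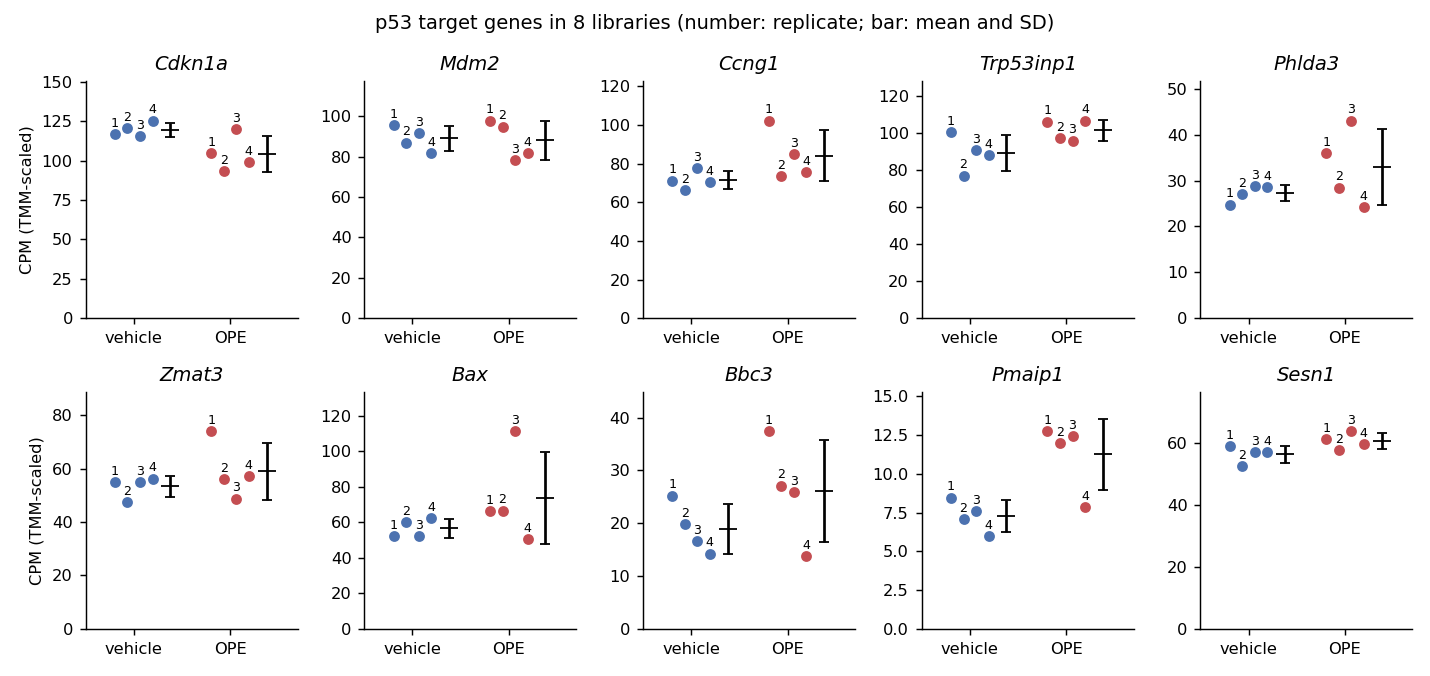
CPM of the 10 p53 target genes in each library (y axis, CPM from 0; x axis, vehicle and OPE groups); points are libraries numbered by replicate, and the bar beside each group is the mean with its SD (n = 4). Cdkn1a lies below the vehicle range in 3 OPE libraries, and Pmaip1 lies above it in 3.

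Among the targets that act on the cell cycle, Cdkn1a had the lowest fold change of the 10. Its CPM was 117, 121, 116 and 125 in vehicle 1 to 4 and 105, 93.5, 120.1 and 99.2 in OPE 1 to 4. OPE 1, 2 and 4 were below all vehicle libraries, and OPE 3 lay inside the vehicle range. The means were 119.7 ± 4.43 CPM with vehicle and 104 ± 11.4 CPM with OPE (SD, n = 4 libraries each), a log2 fold change of -0.20 ± 0.09 (SE; edgeR adjusted p = 0.402). On the deposited FPKM scale, which divides by gene length and by the total of the counts, all 4 OPE values (49.1 to 58.4) were below all 4 vehicle values (61.4 to 67.2), so the place of OPE 3 depends on the scaling. Without OPE 3 the log2 fold change was -0.27 ± 0.07 (adjusted p = 0.0732).

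Sesn1, a sestrin that restrains the growth kinase complex mTORC1, varied little between libraries. It was at 58.9, 52.4, 56.9 and 56.9 CPM with vehicle and at 61.2, 57.6, 63.7 and 59.5 CPM with OPE. OPE 1, 3 and 4 exceeded every vehicle library, by small amounts, and OPE 2 did not. Its log2 fold change was 0.10 ± 0.08 (edgeR adjusted p = 0.649).

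Of the feedback genes, Mdm2 gave nearly the same mean in both groups and Ccng1 a higher mean with OPE. Mdm2 stood at 95.8, 87.0, 91.6 and 81.8 CPM with vehicle and at 97.9, 95.0, 78.2 and 81.7 CPM with OPE. OPE 1 was the highest and OPE 3 the lowest of all 8 libraries, and the group means of 89.1 ± 6.02 and 88.2 ± 9.69 CPM differed by less than the SD of either group (log2 fold change -0.01 ± 0.10, edgeR adjusted p = 0.974). Ccng1, which encodes cyclin G1, a partner of the phosphatase that activates Mdm2, was at 71.2, 66.4, 77.5 and 70.6 CPM with vehicle and at 102, 73.6, 84.8 and 75.7 CPM with OPE. OPE 1 and OPE 3 exceeded the vehicle range, and OPE 2 and OPE 4 were inside it. The log2 fold change of Ccng1 was 0.24 ± 0.11 (adjusted p = 0.405) and came to 0.12 ± 0.09 without OPE 1 (adjusted p = 0.666).

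In the main edgeR fit with all 8 libraries, the genes of mitochondrial apoptosis had the 3 largest fold changes of the 10. Bax did not keep its place in every fit. It was below Ccng1 without OPE 3 (0.11 and 0.23) and with the gene length trend removed (0.285 and 0.300). Pmaip1, which encodes the BH3-only protein Noxa, an inhibitor of the survival protein MCL1, was at 8.47, 7.09, 7.59 and 5.99 CPM with vehicle and at 12.7, 12.0, 12.4 and 7.86 CPM with OPE. OPE 1, 2 and 3 were close together and above all vehicle libraries, while OPE 4 lay between vehicle 3 and vehicle 1. The means were 7.28 ± 1.03 and 11.2 ± 2.28 CPM, a log2 fold change of 0.63 ± 0.18 (1.55-fold; unadjusted p = 0.00465, edgeR adjusted p = 0.158). The read counts behind these values are low for this set, between 118 and 276 reads per library. Without OPE 4 Pmaip1 passed (0.76 ± 0.15, edgeR adjusted p = 0.0482), as 1 of the 10 and beside 1.13% of all genes tested in that fit, and with 8 libraries it passed in DESeq2 (0.63 ± 0.19, adjusted p = 0.0366). The authors' deposited table gives it a log2 fold change of 0.49 and an adjusted p of 0.0412.

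Bbc3 encodes Puma, a BH3-only protein that frees Bax from its inhibitors. It was at 25.2, 19.8, 16.6 and 14.2 CPM with vehicle and at 37.4, 27.1, 25.9 and 13.8 CPM with OPE. OPE 1 was the highest library and OPE 4 the lowest, below all 4 vehicle libraries, so the OPE group spanned the whole vehicle range. For Bbc3 the log2 fold change was 0.47 ± 0.26 (edgeR adjusted p = 0.496), 0.23 ± 0.25 without OPE 1 (adjusted p = 0.756) and 0.67 ± 0.21 without OPE 4 (adjusted p = 0.151).

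Bax encodes the pore-forming protein on which the BH3-only proteins act. Its values were 52.1, 60.1, 52.3 and 62.4 CPM with vehicle and 66.2, 66.7, 111 and 50.8 CPM with OPE. OPE 3 stood far above the other 7 libraries, OPE 1 and OPE 2 were just above the vehicle range, and OPE 4 was just below it. The log2 fold change of 0.38 ± 0.20 (edgeR adjusted p = 0.459) came to 0.11 ± 0.11 without OPE 3 (adjusted p = 0.642).

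Phlda3, which competes with the kinase Akt for membrane lipids, resembled Bax in its high library. It was at 24.8, 27.1, 28.7 and 28.5 CPM with vehicle and at 36.0, 28.5, 43.1 and 24.2 CPM with OPE. OPE 3 was the highest, OPE 1 was also above the vehicle range, and OPE 4 was below it. The log2 fold change was 0.27 ± 0.16 (edgeR adjusted p = 0.518). It came to 0.12 ± 0.12 without OPE 3 (adjusted p = 0.677), and without both OPE 1 and OPE 3 its sign turned, to -0.05 ± 0.11 (adjusted p = 0.95).

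Trp53inp1, a stress-induced protein that helps the activation of p53 and takes part in autophagy, was at 101, 77.1, 90.9 and 88.3 CPM with vehicle and at 106, 97.4, 96.1 and 107 CPM with OPE. All 4 OPE values were above the vehicle mean of 89.2 CPM, and OPE 1 and OPE 4 were above every vehicle library. It gave a log2 fold change of 0.19 ± 0.10 (edgeR adjusted p = 0.439). Zmat3, a zinc finger protein that binds RNA and alters splicing, was at 54.8, 47.5, 54.9 and 56.2 CPM with vehicle and at 74.0, 56.1, 48.8 and 57.1 CPM with OPE. OPE 1 alone stood well above the rest, and the log2 fold change of 0.15 ± 0.13 (adjusted p = 0.693) came to 0.01 ± 0.10 without it (adjusted p = 0.976).

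**Figure D2:**
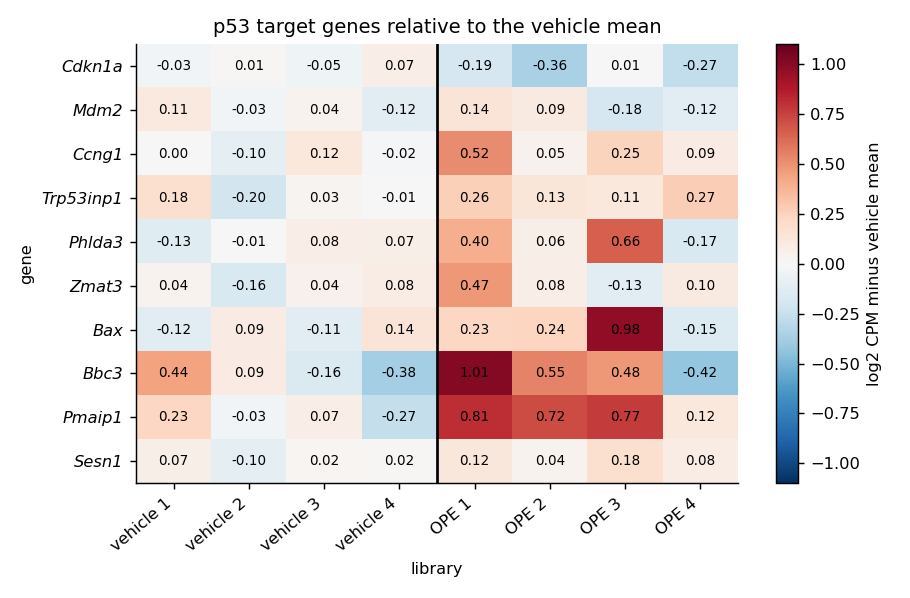
Each cell is the log2 CPM of a gene (row) in a library (column) minus its mean over the vehicle libraries; red is higher and blue lower. OPE 1 is above 0 in 9 of 10 genes, OPE 4 in 5, and Cdkn1a is the row that goes against the others in OPE 1.

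The OPE libraries differed among themselves. Relative to the vehicle mean, the median over the 10 genes was 0.33, 0.09, 0.21 and -0.02 on the log2 scale in OPE 1 to 4, and between -0.03 and 0.05 in the vehicle libraries; over all genes tested it lay within 0.01 of 0 in every library. In OPE 1, 9 of the 10 genes were above the highest vehicle library, against 28.8% of all genes tested, and the remaining one, Cdkn1a, was below the lowest, as were 30.9% of all genes. In OPE 3 the number above was 6, against 37.4% of all genes. In OPE 2 it was 3, against 25.4%, and in OPE 4 also 3, against 21.9%. In OPE 4 5 genes (Cdkn1a, Mdm2, Phlda3, Bax and Bbc3) were below the lowest vehicle library, against 25.8% of all genes.

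OPE 3 differed from the other libraries by gene length, and this touches the shortest targets, Bax, Phlda3, Bbc3 and Cdkn1a. Over all genes tested, the median in OPE 3 relative to the vehicle mean was 0.61 for genes shorter than 1000 bases, 0.35 from 1000 to 2000 bases, 0.04 from 2000 to 4000 and -0.21 from 4000 to 8000. In the deposited table Bax has 869 bases and Phlda3 1435, and they stood at 0.98 and 0.66 in OPE 3. Bbc3 has 1814 bases and Cdkn1a 1910, and they stood at 0.48 and 0.005 in OPE 3. Zmat3, the longest of the 10 with 7791 bases, stood at -0.13. When each library's trend with gene length was removed, the OPE 3 values were 0.61 for Bax, 0.42 for Phlda3 and 0.28 for Zmat3. They were 0.31 for Bbc3 and -0.14 for Cdkn1a. In that fit 9 of the 10 genes had a log2 fold change above 0, with a median of 0.26 against 0.05 over all genes, and none passed, while 2.08% of all genes tested did. The smallest adjusted p-values there were 0.0648 for Pmaip1 (0.66 ± 0.17) and 0.0749 for Trp53inp1 (0.27 ± 0.07). Cdkn1a gave -0.19 ± 0.07 (adjusted p = 0.182), with OPE values of -0.08, -0.36, -0.14 and -0.18, all below the vehicle values of -0.05 to 0.05.

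**Figure D3:**
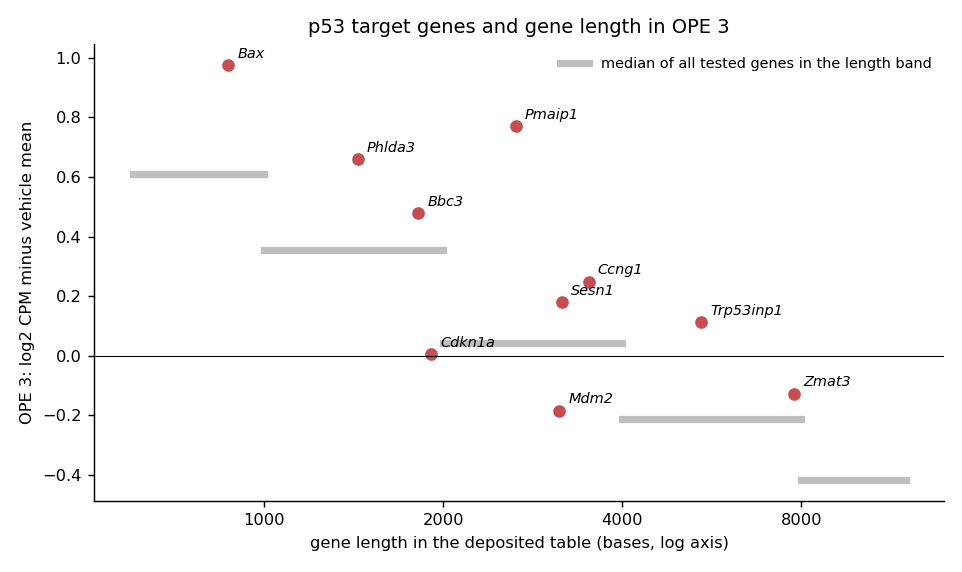
Value of each p53 target gene in OPE 3 (y axis, log2 CPM minus the vehicle mean) against gene length in the deposited table (x axis, log scale); grey bars are medians of all genes tested in length bands, the outermost bands being open-ended. Bax, the shortest gene, is the highest at 0.98, and the band medians go from 0.61 down to -0.42.

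**Figure D4:**
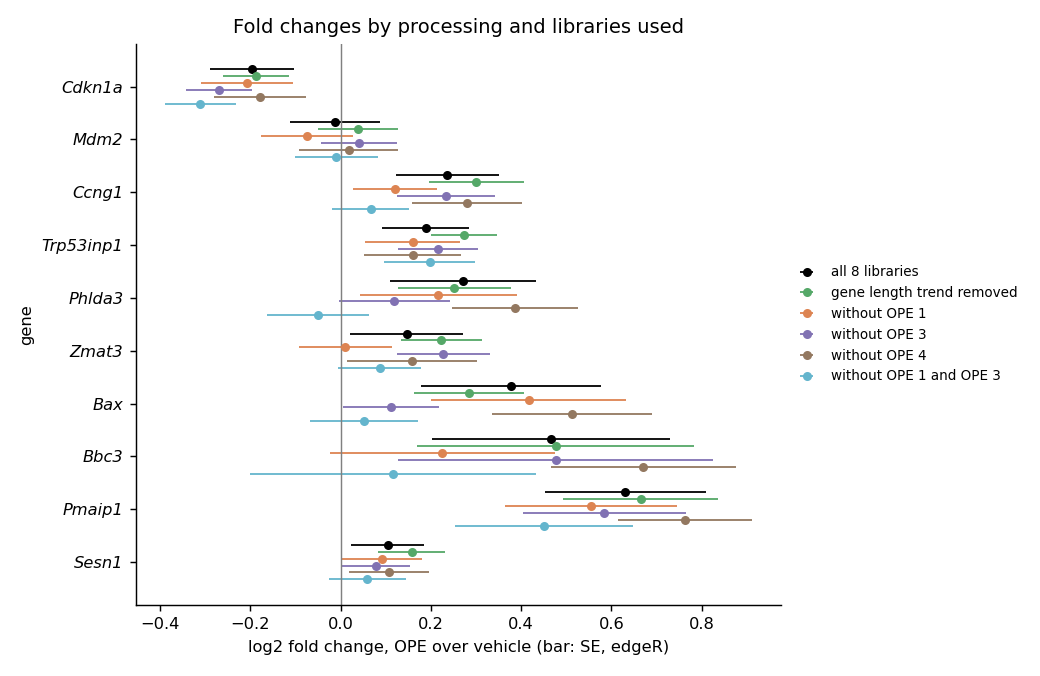
Log2 fold change with its SE (edgeR) for each gene with all libraries, with the gene length trend removed, and without single OPE libraries. Cdkn1a stays below 0 and Pmaip1 above 0 in all 6 fits drawn, and Bax comes to 0.11 without OPE 3.

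Levels between genes can be compared only per length. By the deposited FPKM in the vehicle libraries, Bax (66.4 ± 6.60) and Cdkn1a (63.7 ± 2.73) were the most abundant, and their ranges overlapped. Mdm2 followed at 28.9 ± 1.78, apart from its neighbours on both sides. Ccng1 (20.7 ± 1.27), Phlda3 (19.3 ± 1.36), Sesn1 (18.1 ± 0.829) and Trp53inp1 (16.7 ± 1.73) formed a run in which each range overlapped the next. Bbc3 (10.6 ± 2.61), Zmat3 (6.96 ± 0.509) and Pmaip1 (2.80 ± 0.38) came last, each with a range apart from the next. The 2 BH3-only genes were thus at much lower levels than the pore gene Bax, and Bbc3 had the widest spread for its level.

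The genes whose profile over the 8 libraries was nearest to Cdkn1a, among tested genes with a mean of at least 1 CPM, were Tra2b, a splicing factor, Rnf141, a ring finger protein, and Plcl2, a phospholipase C-like protein. The root mean square difference of their log2 CPM relative to the vehicle mean was 0.07 for each. None of the 9 other p53 targets was among them. Tra2b gave a log2 fold change of -0.19 ± 0.08 (edgeR adjusted p = 0.368).

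Upstream of these targets, the gene of p53 itself and its inhibitors gave no call. Trp53 was at 134 ± 5.97 CPM with vehicle and 132 ± 15.7 CPM with OPE (log2 fold change -0.02 ± 0.10, edgeR adjusted p = 0.953), with OPE 3 the highest and OPE 4 the lowest of the 8 libraries. Mdm4, the partner of Mdm2 in restraining p53, gave 0.09 ± 0.13 (adjusted p = 0.837). Of 25 tested genes among p53, its relatives and regulators, none passed, and the median log2 fold change was 0.01. An unadjusted p below 0.05 was found for 3 of them, where the share over all genes was 13.2%. Those 3 were Cop1, a ubiquitin ligase of p53, and Rpl5 and Npm1, which bind Mdm2 or its complex under ribosomal stress. Cop1 was at 102, 97.5, 96.1 and 94.9 CPM with vehicle and 132, 113, 139 and 120.2 CPM with OPE. All 4 OPE values of Cop1 were above the vehicle range (0.37 ± 0.09, adjusted p = 0.0976), a separation upward seen in 4.05% of all genes tested. Rpl5 and Npm1 gave 0.45 ± 0.17 and 0.38 ± 0.16 (adjusted p = 0.285 and 0.328). In OPE 1 to 4 Rpl5 was at 997, 1002, 1622 and 915 CPM and Npm1 at 1026, 1036, 1575 and 969 CPM. All 4 were above the vehicle range for both genes, and OPE 3 was far above the rest.

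**Figure D5:**
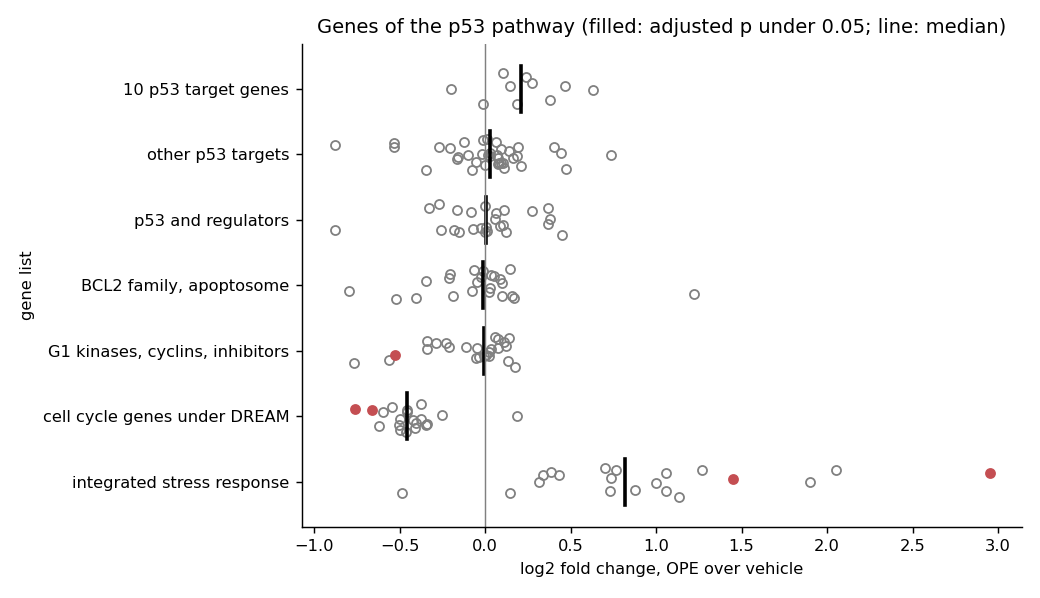
Log2 fold change (x axis, OPE over vehicle) of every tested gene in the lists of the p53 pathway (rows); filled points passed an adjusted p of 0.05 (edgeR) and black lines are medians. The 10 targets have a median of 0.21, the cell cycle genes under DREAM -0.45 and the integrated stress response genes 0.82.

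A further list of 39 p53 targets had 37 tested genes, of which none passed in either direction. Of these 37, 5 had an unadjusted p below 0.05, where the share over all genes was 13.2%. In that list 23 log2 fold changes were above 0 and 14 below, with a median of 0.03, close to that of all genes. The 3 of smallest p were Sesn2, a sestrin, Dram1, a lysosomal membrane protein of autophagy, and Pidd1, a scaffold that activates caspase-2. Sesn2 was at 35.2, 37.1, 37.0 and 33.8 CPM with vehicle and 99.3, 46.7, 45.8 and 45.9 CPM with OPE. Every OPE library exceeded the vehicle range, and OPE 1 was far above the rest (0.74 ± 0.23, edgeR adjusted p = 0.195). Dram1 and Pidd1 gave -0.88 ± 0.33 and -0.34 ± 0.14 (adjusted p = 0.283 and 0.315). The level of Dram1 was low, 1.39 ± 0.255 CPM with vehicle and 0.743 ± 0.278 CPM with OPE, with 5 to 32 reads per library.

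Of 23 other tested genes of the BCL2 family and the apoptosome, none passed, and the median log2 fold change was -0.01. An unadjusted p below 0.05 was found for 4 of them, beside 13.2% of all genes tested. Bcl2, the founding survival gene of the family, was at 78.7 ± 4.78 CPM with vehicle and 59.6 ± 11.8 CPM with OPE (-0.40 ± 0.13, edgeR adjusted p = 0.21). Hrk, another BH3-only gene, gave 1.22 ± 0.43 at a low level, from 1.39 ± 0.592 to 3.18 ± 2.02 CPM (adjusted p = 0.246). Bok, a relative of Bax, gave -0.52 ± 0.23 (adjusted p = 0.376).

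p21 is known to lower many cell cycle genes through the DREAM repressor complex, and nearly all of those listed had lower means with OPE. Cdkn1a, the gene of p21, also had a lower mean (-0.20 ± 0.09, edgeR adjusted p = 0.402). The part of p21 in the values of these cell cycle genes was not tested. Of 20 tested, 2 fell, Mybl2 (-0.76 ± 0.13) and Bub1b (-0.66 ± 0.12; edgeR adjusted p = 0.0388 for each), none rose, and 18 did not pass; lower calls made up 0.438% of all genes tested. The median of the list was -0.45, 19 of the 20 were below 0, and in 14 all 4 OPE libraries were below the vehicle range, as in 5.44% of all genes. Mybl2, a transcription factor of the cycle, was at 18.9, 23.0, 22.8 and 22.2 CPM with vehicle and 11.3, 14.5, 11.1 and 14.5 CPM with OPE. Ccnb1, the mitotic cyclin B1, gave -0.50 ± 0.10 (adjusted p = 0.061). Among 25 kinases, cyclins and inhibitors of G1 and the DREAM subunits, 1 fell, Ccna2, which encodes cyclin A2 (-0.53 ± 0.10, adjusted p = 0.0453), and none rose, with a median of -0.0044. Mybl2, Bub1b and Ccna2 kept the call without OPE 3 or OPE 4 and lost it without any 1 of the 6 other libraries (edgeR adjusted p 0.0669 to 0.141, 0.0529 to 0.129 and 0.0907 to 0.145). Ccne2, a cyclin E, and E2f2 gave -0.77 ± 0.20 and -0.56 ± 0.22 (adjusted p = 0.114 and 0.29).

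Genes of the integrated stress response, some of whose factors also induce Bbc3, Pmaip1 and Sesn2, had higher means with OPE in 19 of 20 cases. Of the 20 tested, 2 rose, Gdf15 (2.95 ± 0.34, edgeR adjusted p = 0.0071) and Nupr1 (1.45 ± 0.27, adjusted p = 0.0484), none fell, and 18 did not pass; higher calls made up 0.0387% of all genes tested. Without any 1 library Gdf15 passed each time (adjusted p at most 0.0495), and Nupr1 passed only without OPE 4 (0.0508 to 0.159 in the 7 other fits). The list had a median of 0.82, and in 12 of the 20 all 4 OPE libraries were above the vehicle range, as in 4.05% of all genes. Gdf15, a stress-induced cytokine and itself a p53 target outside the 10, was at 0.508, 0.867, 0.656 and 0.932 CPM with vehicle and 8.35, 4.30, 7.21 and 3.26 CPM with OPE. Asns, asparagine synthetase, was at 66.8 to 77.9 CPM with vehicle and 225, 107, 142 and 117 CPM with OPE (1.05 ± 0.20, adjusted p = 0.0504). By library, the median of this list relative to the vehicle mean was 1.53, 0.45, 0.97 and 0.35 in OPE 1 to 4. OPE 1 and OPE 3 were thus the highest and OPE 4 the lowest here, as for the median of the 10 p53 targets. The median of the 37 further p53 targets tested had that order too (0.10, -0.01, 0.07 and -0.04 in OPE 1 to 4). These differences are small, as that median lay between -0.02 and 0.04 in the vehicle libraries. Sesn2 belongs to both the further targets and the stress response list. The part of the integrated stress response in the values of the targets was not tested.

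Among the markers of cell types in the bud, only those of macrophages held calls. All 10 macrophage markers had a log2 fold change below 0 and 7 of them fell (edgeR), against 0.438% of all genes tested; their summed level was 141 to 160.4 CPM with vehicle and 26.4, 45.6, 66.7 and 64.2 CPM in OPE 1 to 4. Of 7 endothelial markers 6 were below 0 and none passed, with sums of 244 to 299 CPM and of 116 to 223 CPM. In these lists no marker was under 1 CPM, and OPE 1 was the lowest library. Summed limb mesenchyme markers (1305 to 1386 CPM with vehicle, 1304 to 1482 CPM with OPE) and chondrocyte markers (8220 to 9755 and 8225 to 9291 CPM) overlapped between groups, and no marker of ectoderm, erythroid or muscle cells passed. None of the 7 limb mesenchyme markers, which include the forelimb factor Tbx5, was under 1 CPM. The hindlimb markers Pitx1 and Tbx4 together had 27.7 to 32.8 CPM with vehicle and 25.5 to 30.8 CPM with OPE. The part of these cell types in the values of the p53 targets was not tested. The depth ranged from 14986793 to 22006738 counted reads per library. No other gene of the table overlaps any of the 10 targets in position. On mm10, as the table gives them, Cdkn1a lies on chromosome 17 (29090979 to 29100722), Pmaip1 on chromosome 18 (66458604 to 66465550), and Bbc3 and Bax on chromosome 7 (16309616 to 16318205 and 45461695 to 45466898). Mdm2 and Sesn1 lie on chromosome 10 (117688888 to 117710758 and 41810574 to 41908424), Ccng1 on chromosome 11 (40748552 to 40755311), Trp53inp1 on chromosome 4 (11156431 to 11174379), Phlda3 on chromosome 1 (135766119 to 135769136) and Zmat3 on chromosome 3 (32334796 to 32365678).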

How the data were processed

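Libraries were made from poly-A RNA with random priming, per the labels' protocols. Build mm10 and the tools STAR 2.5, HTSeq 0.6.1, CASAVA 1.8 and DESeq2 (version given as 2) stand in the submitters' processing notes; which tool did what, the annotation and the use of strand are not stated in these sources. The authors deposited 1 table of 21692 genes with raw read counts, a signal column (the count divided by 1 size factor per library), FPKM, and their own log2 fold change and p-value columns, per the file headers. The authors' adjusted p-value is missing for 3933 genes.

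Groups came from the sample titles. The test on raw counts was that of edgeR 4.0.16 under R 4.3.3 (filterByExpr, TMM, robust quasi-likelihood fit, two-sided, group as the only term), with Benjamini-Hochberg adjustment over 15517 genes at 0.05. CPM uses TMM-scaled totals, and log2 CPM a prior count of 2. The SE is the log2 fold change divided by the square root of F. Libraries of 1 group always differed beyond sampling noise (lowest chi-square over its degrees of freedom 5.03). The fits were tested on simulated data. Alternatives were DESeq2 1.42.0, limma-voom (3.58.1), other scalings, no filter, a fit that is not robust, a replicate block, removal of a gene length spline (5 degrees of freedom) and left-out libraries.

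The 10 genes and all lists were chosen with earlier results of these data known. Named beside them are the 3 genes of smallest p per list, Trp53, Mdm4, Gdf15 and the 3 profiles nearest to Cdkn1a. The p53 site search was set after the promoter of Cdkn1a had been read. Older symbols were used for 3 genes, Tigar, Cop1 and Adgre1. Outliers were marked by Dixon's test in groups of 4. Lists are described by counts and medians, with no test of a list.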

Additional observations from a re-analysis of the deposited data

Results flagged for a closer look

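Among the 20 groups of 4 values (10 genes, vehicle and OPE), 2 held a library farther from the rest than Dixon's 95% limit, and chance marks about 1 in 20. Zmat3 was at 47.5 CPM in vehicle 2, with the nearest vehicle library at 54.8 CPM. Pmaip1 was at 7.86 CPM in OPE 4, with the nearest OPE library at 12.0 CPM; without OPE 4 Pmaip1 passed in edgeR with an adjusted p of 0.0482.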

How the results depend on the processing

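The count of p53 targets past the threshold was 0 in the main fit and in 15 of the 17 alternatives, and 1 (Pmaip1, higher) with DESeq2 and without OPE 4; the range over fits without 1 library was 0 to 1. Cdkn1a stayed below 0 (-0.31 to -0.15, adjusted p 0.0732 to 0.66) and Pmaip1 above 0 (0.45 to 0.76, adjusted p 0.0366 to 0.449) in all 17. Mdm2 turned above 0 with the gene length trend removed (0.038), and gave -0.075 to 0.040 over fits without 1 library, above 0 without vehicle 1, OPE 3 or OPE 4 (0.020, 0.040 and 0.018); Phlda3 turned below 0 without both OPE 1 and OPE 3 (-0.050). The 6 other targets kept their sign in all 17. Over all genes the count of 74 (6 higher, 68 lower) was 131 with library totals, 136 without the filter, 504 with DESeq2 (168 higher, 336 lower), 322 with the gene length trend removed (151 higher, 171 lower), and 7 to 308 without 1 library. For the other genes of the pathway lists the count of 5 was 12, 9, 24 and 13 in the same 4 settings, 2 (Mybl2 and Gdf15) with the replicate block, and 1 to 19 without 1 library; Ccna2, Mybl2, Bub1b and Nupr1 each failed to pass in some fits without 1 library, and Gdf15 in none. The labels do not say whether the replicate numbers pair the libraries, and the correlations of deviations do not settle it. For same-numbered libraries these were 0.31, 0.08, 0.01 and 0.09. OPE 1 and OPE 2 correlated best with the vehicle library of their own number, and OPE 3 with vehicle 2 (0.36). With the replicate block 62 genes passed, and none of the 10 targets. In that fit Bbc3 gave 0.41 ± 0.14 (edgeR adjusted p = 0.239) and Pmaip1 0.61 ± 0.14 (adjusted p = 0.113). Pmaip1 has the fewest reads of the 10, at least 118 per library.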
